A study of Homo sapiens with 12 samples.

Results

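Adenosine uptake, phosphorylation and signalling were followed through 9 genes: the nucleoside transporters SLC29A1 and SLC29A2, the kinases ADK and DCK, the deaminase ADA, the ecto-5'-nucleotidase NT5E and the adenosine receptors ADORA1, ADORA2A and ADORA2B. They were found by gene name in the deposited transcript files, which named 60609 genes in all. The level of each was the sum of its transcripts in TPM, a unit scaled to transcript length and library size. All 9 were among the 17185 genes that reached 1 TPM in at least 2 libraries. The cells were NS-SV-AC, an established human cell line derived from salivary gland acini. They had been given DMSO (the solvent control), 2-CM (spelled 2-C'-Methyladenosine in the series text, an analogue of adenosine) or RES (resveratrol, a plant polyphenol). Each was added 24 h ahead of transfection and once more during it, 2-CM and RES at 20 μm in the spelling of the labels. Transfection was with poly I:C (double-stranded RNA made synthetically, which sets off antiviral signalling) for 14 h, or with a control named depc. The 6 groups, DMSO depc, DMSO poly I:C, 2-CM depc, 2-CM poly I:C, RES depc and RES poly I:C, held 2 replicates each. Nothing in the labels says that replicates were separate cultures, so p-values measure only the spread between these libraries.

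Adenosine enters and leaves cells down its gradient through the equilibrative transporters. Inside, adenosine kinase phosphorylates it to AMP and adenosine deaminase converts it to inosine, so the kinase and the deaminase compete for the same substrate. Outside, NT5E (CD73) makes adenosine from AMP, and the receptors carry the signal to adenylyl cyclase: ADORA1 couples to inhibitory G proteins, ADORA2A and ADORA2B to stimulatory ones. Some analogues of adenosine act as drugs or tools after uptake and phosphorylation to the triphosphate, which is the reason for describing these genes beside 2-CM. In salivary glands adenosine receptors are known to modulate secretion.

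The libraries held 3.15 to 4.99 gigabases of reads on annotated transcripts (coverage times length). Acinar identity was weak in the RNA: AQP5 was at 0 TPM in every library, AMY1A and CHRM3 did not exceed 0.092 TPM, and BHLHA15 lay between 0.507 and 2.69 TPM, while epithelial and mesenchymal markers were mixed. The epithelial keratins KRT8 and KRT18 were at 630 to 1958 and 466 to 1571 TPM, but EPCAM and CDH1 did not exceed 1.23 and 0.60 TPM. The mesenchymal VIM, COL1A1 and PDGFRB were at 386 to 819, 15.9 to 100.3 and 4.20 to 11.0 TPM, but THY1 did not exceed 0.75 TPM. The interferon-induced gene OAS1 was at 1.87 to 4.30 TPM in the depc libraries and at 109 to 255 TPM in the poly I:C libraries. Replicates differed along the GC content of genes. Within groups the Spearman correlation across all tested genes between GC content and the difference of replicate 1 from replicate 2 was −0.78 to −0.43 in 5 groups and 0.77 in RES poly I:C. GC content is therefore given beside the results on the 9 genes, together with values after a GC correction, in which a smooth curve of each library's deviation from the mean against GC content was subtracted.

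Stretches upstream of RefSeq transcript starts are shown for 4 genes because DCK, ADA and SLC29A1 passed the test under 2-CM with and without that correction and because SLC29A1 and ADK each start at 2 separate regions. ADORA1 passed with and without it too, but its window held no stretch of 100 bases or more outside annotated exons and is not shown. Capitals mark the GC box, GGGCGG or CCGCCC on the printed strand, the letters that the factor Sp1 is known to bind. The stretches come from RefSeq (GRCh38.p14), 5' to 3' on the strand of the gene: DCK at chr4:70993399-70993562 (plus strand), SLC29A1 at chr6:44219365-44219504 for the upstream of its start regions and chr6:44223345-44223503 for the downstream one (both plus), ADK, the first of its start regions, at chr10:74151064-74151201 (plus) and ADA at chr20:44651700-44651901 (minus).
DCK: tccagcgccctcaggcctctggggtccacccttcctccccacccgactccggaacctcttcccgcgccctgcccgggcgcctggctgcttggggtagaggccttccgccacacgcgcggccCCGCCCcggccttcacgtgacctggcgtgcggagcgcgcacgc
SLC29A1 upstream: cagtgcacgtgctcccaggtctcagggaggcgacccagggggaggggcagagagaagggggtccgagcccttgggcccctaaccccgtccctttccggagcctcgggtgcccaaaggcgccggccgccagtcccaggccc
SLC29A1 downstream: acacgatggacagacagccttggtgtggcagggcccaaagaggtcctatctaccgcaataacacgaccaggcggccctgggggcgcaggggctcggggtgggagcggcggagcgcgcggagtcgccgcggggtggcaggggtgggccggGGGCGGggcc
ADK: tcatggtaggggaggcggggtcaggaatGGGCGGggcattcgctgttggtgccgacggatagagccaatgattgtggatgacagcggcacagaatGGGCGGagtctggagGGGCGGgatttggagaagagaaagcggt
ADA: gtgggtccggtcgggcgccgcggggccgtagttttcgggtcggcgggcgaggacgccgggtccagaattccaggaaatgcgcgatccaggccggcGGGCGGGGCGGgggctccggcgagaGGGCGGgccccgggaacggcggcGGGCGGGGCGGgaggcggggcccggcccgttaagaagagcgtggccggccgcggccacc
The printed stretches held 5 GC boxes in ADA, overlaps counted, 3 in ADK, 1 in DCK, 0 in the upstream stretch of SLC29A1 and 1 in its downstream one. The stretches of DCK and ADA lie inside the annotated span of their genes, which have further starts upstream. RefSeq windows of equal length around the transcript start were matched for 7 of the 9 genes, in 9 windows. All 9 of these windows held a GC box on either strand, against 45.0% of all 35116 windows of the same length. The windows were also rich in GC, 8 of them at 65% to 79.3% and 1 of ADK at 58%, beside a median of 58.7% over all windows. The cyclic AMP response element TGACGTCA was in 0 of 9 (1.85% of all) and the core of the hypoxia response element ACGTG in 2 of 9 (21.4% of all), each searched on both strands. Both genes with a rise and genes with a fall carried GC boxes. A match describes letters in the window, not a bound site.

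TPM is per length, and the genes were set in order by it with no correction for GC content. The libraries differed along GC content and the 9 genes held 39.3% to 61.9% GC. The order is therefore a description of the deposited values. SLC29A1 was the highest of the 9 in 12 of 12 libraries, at 71.3 to 144 TPM. SLC29A2 (19.4 to 56.4 TPM) and ADA (28.7 to 57.2 TPM) were above every receptor in each library. ADK (4.61 to 49.9 TPM) and DCK (4.12 to 42.3 TPM) ranged more widely. DCK was only seventh or eighth in 4 libraries, DMSO depc 2, both of 2-CM depc and RES depc 2, and in 2-CM depc ADORA2B lay above it without overlap. ADK was seventh in 2-CM depc 2, below the 3 receptors. Of the receptors, ADORA1 was at 1.96 to 11.3 TPM, ADORA2B at 5.22 to 7.86 TPM and ADORA2A at 0.145 to 10.8 TPM. NT5E, at 0.627 to 3.44 TPM, was the lowest in 7 libraries and the eighth in the other 5. Neighbours in the order could not be parted everywhere. In DMSO depc the replicates of DCK and ADORA1, of ADORA1 and ADORA2B, and of ADORA2A and NT5E overlapped. In 2-CM poly I:C those of DCK and ADK, of ADK and ADA, and of ADA and SLC29A2 overlapped. The order was least resolved in RES depc. There each neighbouring pair overlapped from ADA through SLC29A2, ADK, DCK, ADORA1 and ADORA2B to ADORA2A. The other groups held overlapping pairs too. The estimated reads behind a value ran from 3029 to 9579 for SLC29A1 and from 37 to 260 for NT5E, and those for ADORA2A from 2 to 752. Few reads set the counting error only. The SE of a difference on the log2(TPM + 1) scale was 0.68 for ADK, 0.65 for DCK and 0.29 for NT5E. ADORA2A, whose reads ran lowest, had the widest SE of the 9. Adding 1 TPM narrows the spread of a gene as low as NT5E, whose replicates were at 1.61 and 0.71 TPM in RES depc.

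**Figure D1:**
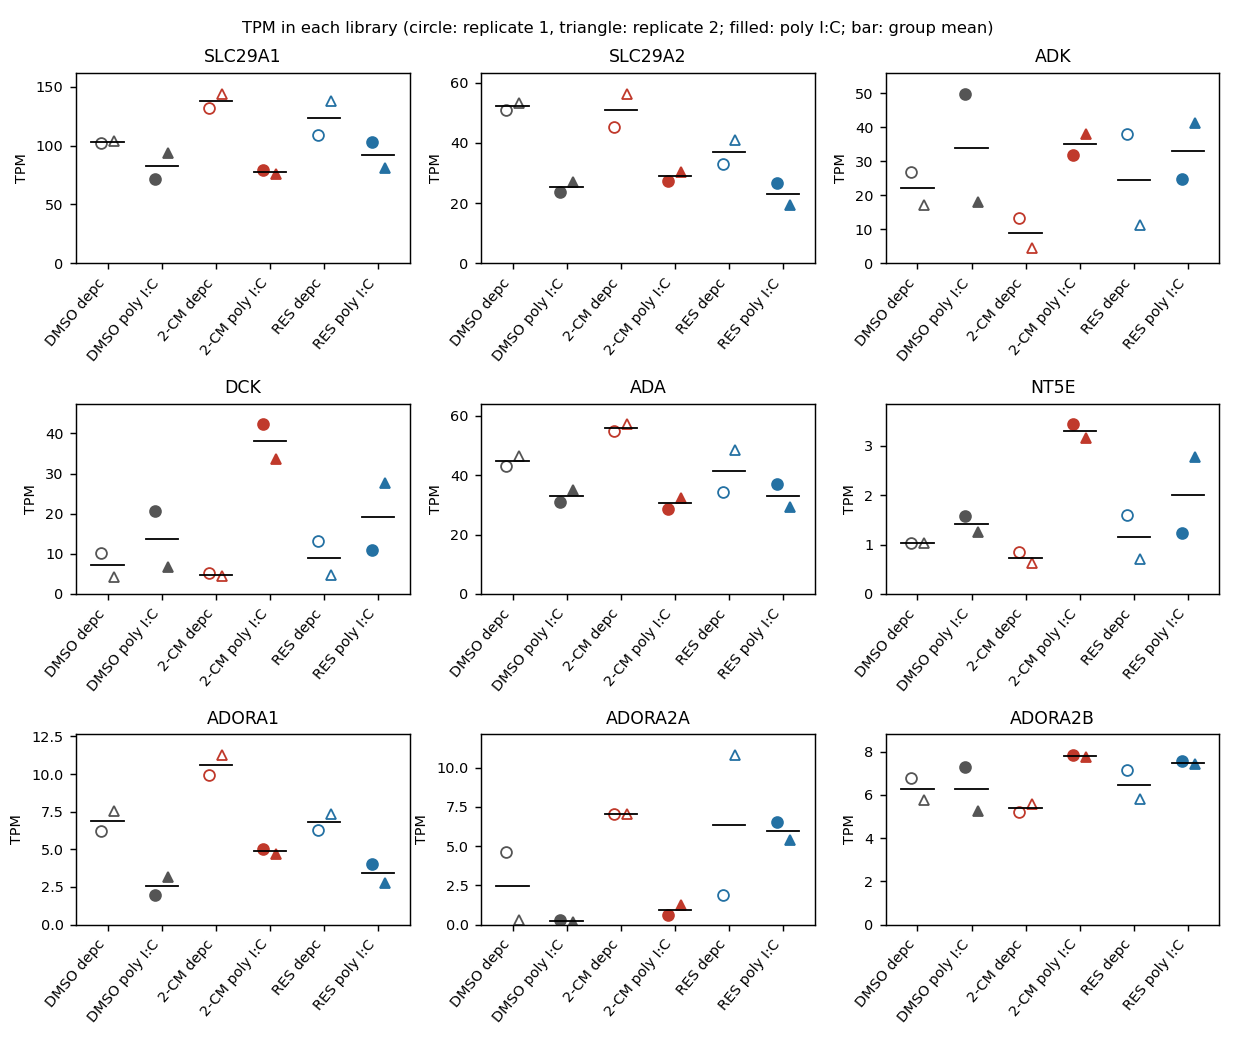
TPM of the 9 genes (vertical axes, linear, from 0) in each library of the 6 groups (horizontal axes). Circles are replicate 1, triangles replicate 2, filled symbols poly I:C and bars group means. DCK and NT5E stand highest in 2-CM poly I:C, and SLC29A1 and ADORA1 in 2-CM depc.

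Differences were tested with limma on log2(TPM + 1) over all 17185 genes, and a gene was called at an adjusted p under 0.05. Poly I:C was compared with depc under each compound. Under 2-CM 8 of 9 were called (6 with voom on estimated reads), with DCK, ADK and NT5E higher and SLC29A1, SLC29A2, ADA, ADORA1 and ADORA2A lower. In that comparison 49.3% of all tested genes were called, 37.5% higher and 11.8% lower, so that a call was common there. The median difference of the 9 genes was −0.78 and that of all genes 0.61 on the log2 scale. With median-of-ratios scaling these medians were −1.61 and 0.03, and with the GC correction −0.29 and −0.01. Under DMSO 2 of 9 were called, SLC29A2 and ADORA1, both lower, against 4.08% of all genes (3.28% lower). Both DMSO calls were lost, with the same direction, in 5 of 9 other settings: FPKM, median-of-ratios scaling, voom on estimated reads, the replicate block and a fit of the 2 groups alone, which called 0 of 9. Under RES 0 of 9 were called with limma (2 at an unadjusted p under 0.05, 0 with voom on estimated reads), against 0.442% of all genes. Replicates did not overlap between poly I:C and depc for 9 of 9 genes under 2-CM (86.6% of all genes), 6 under DMSO (44.9%) and 4 under RES (30.2%). All 8 calls under 2-CM were lost when any 1 of the 4 2-CM libraries was left out, with the highest adjusted p between 0.153 and 0.227, and when genes at low levels were not filtered out (0 of 9 called). With a 2-CM library left out 1 arm is a single library, assumed to vary like the other groups. The differences kept their direction, DCK at 2.58 to 2.90, ADA at −0.94 to −0.77 and ADK, the widest of the risers, at 1.33 to 2.67. Calls over all genes fell with them, from 8475 to between 37 and 46 of 17185 without a 2-CM library and to 649 of 40364 without the filter. The scale of the 2-CM comparison depended on normalization: with median-of-ratios scaling calls split into 3484 higher and 4046 lower genes in place of 6440 and 2035, and 7 of the 9 genes were called, ADK not.

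**Figure D2:**
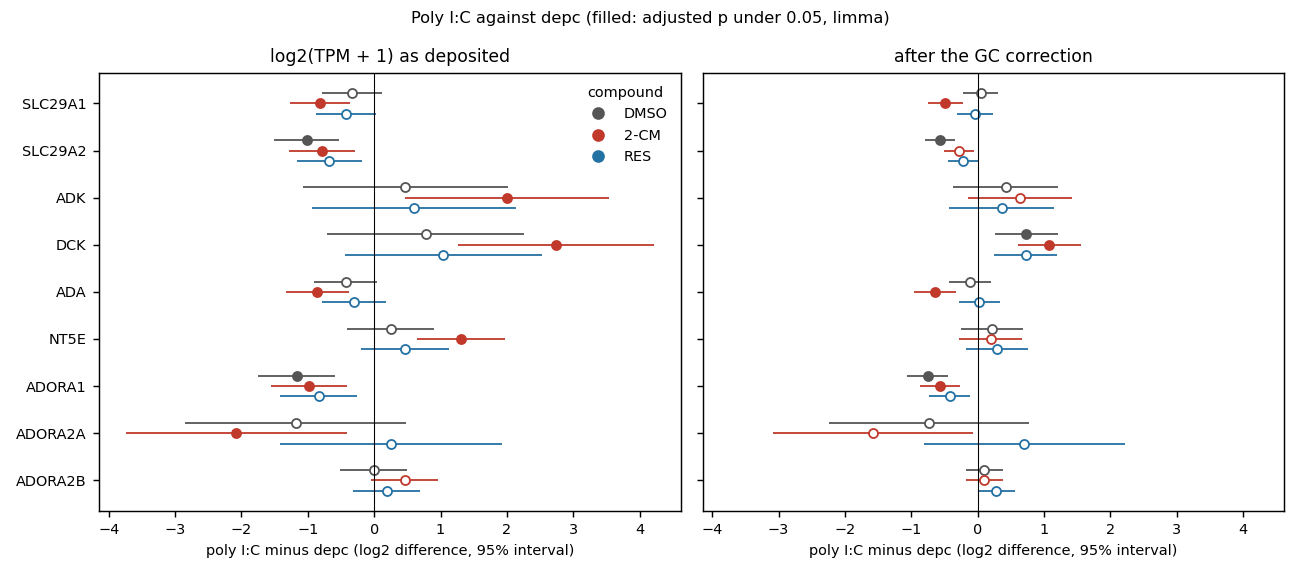
Poly I:C minus depc on the log2(TPM + 1) scale (horizontal axis, with 95% intervals) for each gene (vertical axis) and compound, as deposited on the left and after the GC correction on the right. Filled points had an adjusted p under 0.05 (limma). Under 2-CM 8 points are filled on the left and 4 on the right, where 30.1% of all genes were called.

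SLC29A1 encodes ENT1, the main equilibrative nucleoside transporter of the plasma membrane, and lies at chr6:44219505-44234151 on the plus strand. It was at 102 and 104 TPM in DMSO depc, 71.3 and 93.9 in DMSO poly I:C, 132 and 144 in 2-CM depc, 79.0 and 76.1 in 2-CM poly I:C, 109 and 138 in RES depc and 103 and 81.0 in RES poly I:C. The poly I:C libraries lay below the depc libraries under each compound, without overlap, and 2-CM depc held the highest values of all but for 1 RES depc library. Under 2-CM it fell by 0.82 (SE 0.20, adjusted p = 0.0274, limma). Under DMSO the difference was −0.33 (95% interval −0.78 to 0.12) and under RES −0.42 (−0.87 to 0.03), and neither was called. Its exons held 58.6% GC, and after the GC correction the fall under 2-CM was −0.49 (adjusted p = 0.0185, limma), while the difference under DMSO was 0.04.

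SLC29A1 transcripts start at 2 regions 3980 bases apart, and 7 of its 25 annotated transcripts belong to the upstream one. The upstream region held 64.9% to 88.9% of the gene's TPM in the 10 libraries other than 2-CM poly I:C, and 28.5% and 49.4% in 2-CM poly I:C. Over the 3 compounds together the share was 18.0 percentage points lower with poly I:C, given with no test. The groups were apart in 1 of 3 compounds, 2-CM. Under DMSO the share was 88.1% and 70.8% with depc and 64.9% and 84.2% with poly I:C. Under RES it was 88.9% and 84.7% with depc and 81.6% and 86.3% with poly I:C. The shares are estimates of StringTie and were unstable, with the 2 main transcripts at 0 to 81.4 and 0 to 58.4 TPM.

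SLC29A2 encodes ENT2, the second equilibrative transporter, which also carries nucleobases, and lies at chr11:66362521-66372214 on the minus strand. It was at 51.0 and 53.3 TPM in DMSO depc, 23.7 and 27.0 in DMSO poly I:C, 45.3 and 56.4 in 2-CM depc, 27.5 and 30.5 in 2-CM poly I:C, 33.2 and 41.1 in RES depc and 26.6 and 19.4 in RES poly I:C. Every poly I:C library lay below every depc library, whatever the compound. It fell by 1.02 under DMSO (SE 0.22, adjusted p = 0.0413, limma) and by 0.78 under 2-CM (SE 0.22, adjusted p = 0.0293). Under RES it was −0.67 (95% interval −1.17 to −0.18), with an adjusted p of 0.221. Its GC content, 61.9%, was among the highest of the 9. After the GC correction the fall under DMSO was −0.57 (adjusted p = 0.00642, limma), and under 2-CM the difference was −0.29 and was not called (0.0546). The DMSO call was lost without any 1 of the DMSO or 2-CM libraries (adjusted p up to 0.266). AP001107.9, on the opposite strand, shares 279 exon bases with SLC29A2, and without strand in the counting their reads cannot be told apart there.

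ADK, adenosine kinase, which makes AMP from adenosine, lies at chr10:74151202-74709963 on the plus strand. It was at 26.9 and 17.2 TPM in DMSO depc, 49.9 and 18.2 in DMSO poly I:C, 13.3 and 4.61 in 2-CM depc, 31.8 and 38.0 in 2-CM poly I:C, 38.0 and 11.1 in RES depc and 24.8 and 41.1 in RES poly I:C. Replicates differed widely in 5 of the 6 groups, and poly I:C and depc libraries were apart only under 2-CM. There ADK rose by 2.00 (SE 0.68, adjusted p = 0.0398, limma). The call was lost without either DMSO depc library and without any 1 of the 2-CM libraries (adjusted p up to 0.227). ADK exons held 42.5% GC, and after the GC correction the difference was 0.64 (adjusted p = 0.179, limma), less than the difference as deposited and not called. The differences under DMSO (0.47, 95% interval −1.07 to 2.01) and RES (0.60, −0.94 to 2.14) left both directions possible.

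ADK transcripts start at 2 regions 25542 bases apart, the known starts of a long and a short form that differ at the N terminus. The upstream region held 46.2% and 62.5% of ADK TPM in DMSO depc, 63.6% and 77.0% in DMSO poly I:C, 47.1% and 27.6% in 2-CM depc, 70.8% and 55.2% in 2-CM poly I:C, 43.9% and 41.3% in RES depc and 57.2% and 66.5% in RES poly I:C. The poly I:C libraries had the higher upstream share in each of the 3 compounds, without overlap. The mean difference was 20.3 percentage points. The shares had been seen before this comparison was chosen, so it is a description with no test. Transcript shares are estimates of StringTie, and 4 of 14 transcripts, each with 10% or more, held 92.4% of ADK TPM. The estimates were unstable. The largest downstream transcript ranged between 0 and 15.5 TPM, with 0 in 5 libraries, and the largest upstream one between 0 and 15.7 TPM. The 2 main upstream transcripts held 37.3% and 42.9% GC, and the 2 main downstream ones 41.1% and 44.4%. The shares were not corrected for GC, and its part in them was not tested. No such comparison is given for all genes.

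DCK, deoxycytidine kinase, phosphorylates deoxynucleosides, deoxyadenosine among them, and lies at chr4:70992538-71030914 on the plus strand. It was at 10.2 and 4.12 TPM in DMSO depc, 20.6 and 6.78 in DMSO poly I:C, 5.12 and 4.47 in 2-CM depc, 42.3 and 33.7 in 2-CM poly I:C, 13.1 and 4.69 in RES depc and 11.0 and 27.6 in RES poly I:C. The 2-CM poly I:C libraries were the highest of all 12. DCK rose by 2.74 under 2-CM (SE 0.65, adjusted p = 0.0274, limma). Its GC content, 39.3%, was the lowest of the 9. After the GC correction the rise was 1.08 (adjusted p = 0.00994, limma), and DCK was then called under DMSO too, at 0.73 (adjusted p = 0.0459), where the correction raised the calls over all genes to 15.9%. With the replicate block added to the correction that DMSO call was lost (adjusted p = 0.0502). Under RES the corrected difference was 0.73 (adjusted p = 0.106). MOB1B shares 199 exon bases with DCK on the same strand and was at 0.90 to 9.07 TPM.

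ADA, adenosine deaminase, lies at chr20:44619522-44652233 on the minus strand. It was at 43.1 and 46.6 TPM in DMSO depc, 31.0 and 35.1 in DMSO poly I:C, 54.8 and 57.2 in 2-CM depc, 28.7 and 32.4 in 2-CM poly I:C, 34.5 and 48.4 in RES depc and 37.0 and 29.4 in RES poly I:C. Both 2-CM depc libraries were above all others. ADA fell by 0.86 under 2-CM (SE 0.21, adjusted p = 0.0276, limma), and the difference was −0.64 after the GC correction (adjusted p = 0.0134). Under DMSO its difference was −0.43 (95% interval −0.91 to 0.05) and under RES −0.30 (−0.78 to 0.18). Its exons held 56.9% GC. The ratio of ADA to ADK, both per length, was 4.13 and 12.4 in 2-CM depc and 0.90 and 0.85 in 2-CM poly I:C, where the replicates of the pair overlapped. It overlapped between depc and poly I:C under DMSO (1.60 and 2.71 against 0.62 and 1.93) and under RES (0.91 and 4.34 against 1.49 and 0.71). The ratio is not corrected for GC. PKIG, on the opposite strand, shares 46 exon bases with ADA.

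NT5E lies at chr6:85449584-85495791 on the plus strand. It was at 1.03 and 1.04 TPM in DMSO depc, 1.59 and 1.26 in DMSO poly I:C, 0.85 and 0.63 in 2-CM depc, 3.44 and 3.16 in 2-CM poly I:C, 1.61 and 0.71 in RES depc and 1.24 and 2.77 in RES poly I:C. The 2 highest values were both in 2-CM poly I:C. NT5E rose by 1.31 under 2-CM (SE 0.29, adjusted p = 0.0273, limma), on a scale that adds 1 TPM and so understates changes of a gene this low. Its GC content was 44.7%, and after the GC correction the difference was 0.19 (95% interval −0.28 to 0.66, adjusted p = 0.490). Under DMSO it was 0.25 (−0.41 to 0.91) as deposited.

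ADORA1, the inhibitory receptor, lies at chr1:203090654-203167405 on the plus strand. It was at 6.24 and 7.53 TPM in DMSO depc, 1.96 and 3.14 in DMSO poly I:C, 9.91 and 11.3 in 2-CM depc, 5.04 and 4.68 in 2-CM poly I:C, 6.28 and 7.32 in RES depc and 4.02 and 2.78 in RES poly I:C. Poly I:C libraries lay below depc libraries under each compound. ADORA1 fell by 1.16 under DMSO (SE 0.25, adjusted p = 0.0435, limma) and by 0.98 under 2-CM (SE 0.25, adjusted p = 0.0280), and the difference under RES was −0.84 (adjusted p = 0.200). With 59.9% GC, it kept both calls after the correction, at −0.76 under DMSO (adjusted p = 0.00676) and −0.57 under 2-CM (adjusted p = 0.0169). The DMSO call was lost without any 1 of 10 libraries, those of RES depc being the exceptions (adjusted p up to 0.286).

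ADORA2A, a stimulatory receptor, lies at chr22:24417879-24442357 on the plus strand. It was at 4.65 and 0.32 TPM in DMSO depc, 0.27 and 0.14 in DMSO poly I:C, 7.03 and 7.07 in 2-CM depc, 0.62 and 1.24 in 2-CM poly I:C, 1.88 and 10.8 in RES depc and 6.55 and 5.42 in RES poly I:C. Its replicates differed most in DMSO depc and RES depc. ADORA2A fell by 2.08 under 2-CM (SE 0.73, adjusted p = 0.0444, limma). The call was kept in only 4 of 10 other settings, whose values ran from −4.88 (voom) to −0.91. It was lost after the GC correction (−1.58, adjusted p = 0.0954), with the replicate block (adjusted p = 0.0530), with both, with a pseudocount of 0.1, with voom, without the filter on low genes and without any 1 of the 2-CM, DMSO poly I:C or RES poly I:C libraries. The readthrough gene SPECC1L-ADORA2A shares 2380 exon bases with it on the same strand, 56.8% of the exon bases of ADORA2A. How StringTie assigned the reads of the shared bases was not tested. In DMSO depc the readthrough gene was at 0 and 2.63 TPM and in RES depc at 6.29 and 0 TPM, in each case high in the library where ADORA2A was low.

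**Figure D3:**
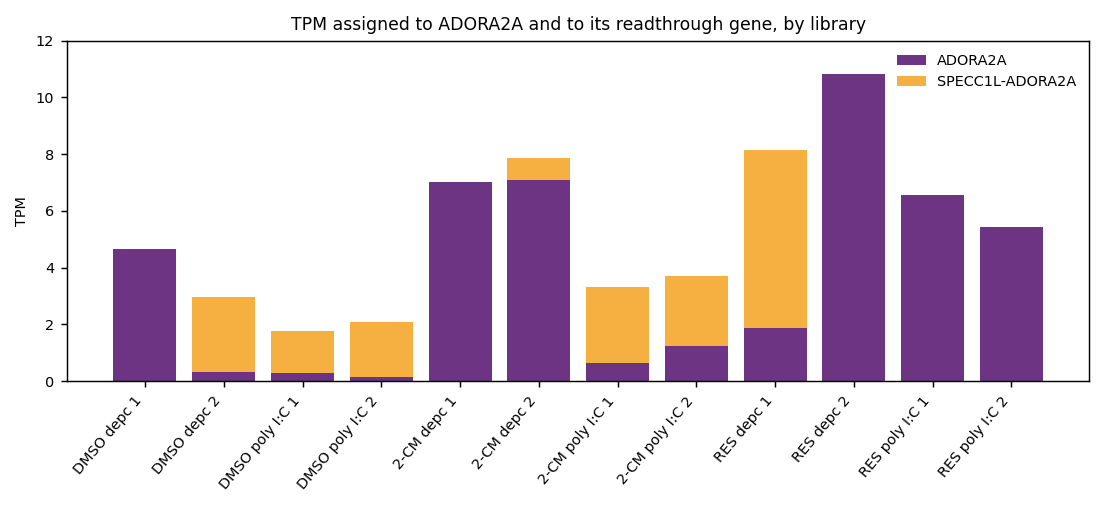
TPM assigned to ADORA2A and, stacked on it, to SPECC1L-ADORA2A (vertical axis) in each of the 12 libraries (horizontal axis). The summed bars of each group's replicates are closer to each other than those of ADORA2A alone in DMSO depc and RES depc.

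With ADORA2A and SPECC1L-ADORA2A summed, an alternative chosen after seeing the data, the values were 4.65 and 2.95 TPM in DMSO depc, 1.78 and 2.07 in DMSO poly I:C, 7.03 and 7.86 in 2-CM depc, 3.31 and 3.70 in 2-CM poly I:C, 8.16 and 10.8 in RES depc and 6.55 and 5.45 in RES poly I:C. SPECC1L-ADORA2A has 6204 exon bases, of which 2380 are shared, so the sum also holds signal from outside ADORA2A. For the sum, poly I:C libraries were below depc libraries under each compound. Replicates were apart for 44.9% of all genes under DMSO, 86.6% under 2-CM and 30.2% under RES. The SE fell from 0.73 to 0.25. The opposed values of the 2 genes were known when the sum was chosen, so the lower SE is no support for it. The sum fell by 0.91 under 2-CM (adjusted p = 0.0295, limma), while DMSO (−0.69, adjusted p = 0.168) and RES (−0.58, adjusted p = 0.354) were not called. For the sum, 2-CM against DMSO was 0.84 with depc (95% interval 0.26 to 1.41, adjusted p = 0.721), where ADORA2A alone gave 1.56, and 0.62 with poly I:C (adjusted p = 0.134). RES against DMSO was 1.14 with depc (adjusted p = 0.0752) and 1.26 with poly I:C (adjusted p = 0.0897). With poly I:C, 2-CM against RES was −0.63 (adjusted p = 0.253), where ADORA2A alone gave −1.87.

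ADORA2B, the stimulatory receptor of lower affinity for adenosine, lies at chr17:15944917-15975746 on the plus strand. It was at 6.80 and 5.76 TPM in DMSO depc, 7.31 and 5.28 in DMSO poly I:C, 5.22 and 5.59 in 2-CM depc, 7.86 and 7.78 in 2-CM poly I:C, 7.14 and 5.81 in RES depc and 7.57 and 7.42 in RES poly I:C. It varied least of the 9 and was the only one not called under 2-CM, where poly I:C gave 0.46 (95% interval −0.05 to 0.97, adjusted p = 0.107). Under DMSO the difference was −0.01 (−0.52 to 0.50). Its direction under 2-CM turned with the scaling, to −0.27 with median-of-ratios scaling. Its exons held 51.0% GC, near the median of 48.4% of all tested genes.

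The split between higher and lower genes under 2-CM followed their GC content. DCK, ADK and NT5E, which rose, held 39.3% to 44.7% GC, and the 5 that fell held 56.9% to 61.9%. Across all tested genes the median poly I:C difference under 2-CM went from 1.92 in the lowest of 10 equal bins by GC to −0.61 in the highest. The Spearman correlation of that difference with GC was −0.80 across genes, which are not independent replicates, and it was −0.36 under DMSO and −0.62 under RES. The correlation came from the same libraries as the differences, and its cause was not tested. After the GC correction DCK, ADA, ADORA1 and SLC29A1 remained called under 2-CM, 4 of 9 against 30.1% of all genes.

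**Figure D4:**
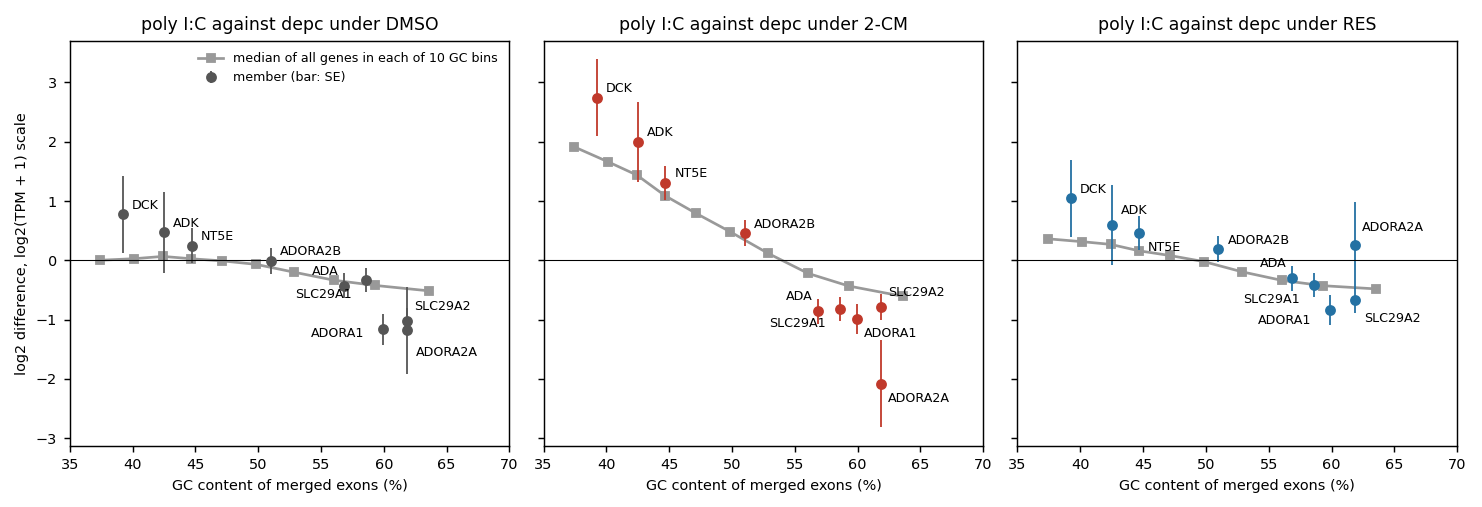
Poly I:C minus depc on the log2(TPM + 1) scale (vertical axis) against the GC content of exons (horizontal axis, percent) under each compound. Coloured points with SE bars are the 9 genes, and grey squares are medians of all tested genes in 10 equal bins by GC. Under 2-CM the squares fall from 1.92 to −0.61. DCK, ADK and NT5E lie above them, and ADA, SLC29A1, SLC29A2, ADORA1 and ADORA2A below.

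Whether 2-CM itself moved these genes was asked by comparing it with DMSO at the same transfection. With depc 0 of 9 genes were called with limma (0 at an unadjusted p under 0.05, 0 with voom), against 0.0349% of all genes. ADK gave −1.33 (95% interval −2.87 to 0.21), ADORA2A 1.56 (−0.11 to 3.23), ADORA1 0.56 (−0.02 to 1.14) and SLC29A1 0.41 (−0.04 to 0.87). These intervals reach well past a halving for ADK and a doubling for ADORA2A, and they include 0 for all 4 genes. Replicates of 7 genes did not overlap between 2-CM and DMSO depc (56.1% of all genes): SLC29A1, ADA, ADORA1 and ADORA2A were higher and ADK, NT5E and ADORA2B lower. With GC-corrected values 0 of 9 were called (3 unadjusted), against 0.0407% of all genes.

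With poly I:C, 2-CM against DMSO gave 0 calls among the 9 with limma (3 at an unadjusted p under 0.05, 0 with voom), against 0.105% of all genes. The 3 were DCK (1.58, 95% interval 0.10 to 3.06, adjusted p = 0.136), NT5E (0.83, 0.17 to 1.49, adjusted p = 0.119) and ADORA1 (0.74, 0.16 to 1.32, adjusted p = 0.118). SLC29A1 gave −0.08 (−0.53 to 0.38) and ADA −0.11 (−0.59 to 0.37). Replicates of 6 genes were apart (76.4% of all genes), each higher with 2-CM in TPM. Part of these directions rested on the scaling. With median-of-ratios scaling the median of all genes went from 0.59 to 0.00 and that of the 9 genes from 0.29 to −0.39. SLC29A2 and ADORA2B then turned lower, and none of the 9 was below 0.05 before adjustment (0 of 9). GC-corrected values gave 0 calls among the 9 (4 unadjusted), against 4.07% of all genes, with DCK at 0.51, NT5E at 0.06 and ADORA1 at 0.52. The difference between the poly I:C responses of 2-CM and DMSO cells, tested directly, called 0 of 9 with limma (1 at an unadjusted p under 0.05, 0 with voom), against 0.0116% of all genes. It was 1.97 for DCK (adjusted p = 0.178), 1.53 for ADK (adjusted p = 0.273) and 1.06 for NT5E (adjusted p = 0.161). Once GC was corrected for, 0 of 9 were called (2 unadjusted), against 0.0175% of all genes. So more of the genes were called under 2-CM than under DMSO, but the difference in response, tested itself, passed for none of the 9. The DMSO libraries serve in several of these comparisons, so that the values are not independent of each other.

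RES against DMSO called 0 of 9 with limma, with depc (0 unadjusted, 0 with voom, 1.03% of all genes called) and with poly I:C (1 unadjusted, 0 with voom, 0.157%). The 1 was ADORA2A with poly I:C, at 2.53 (95% interval 0.86 to 4.20, adjusted p = 0.186). Replicates were apart for 2 genes in each, SLC29A1 (higher) and SLC29A2 (lower) with depc (34.2% of all genes) and ADORA2A and ADORA2B (both higher) with poly I:C (35.3%). After the GC correction SLC29A2 was called lower in RES than in DMSO with depc, by −0.70 (adjusted p = 0.00387, limma), 1 of 9 genes where 10.9% of all genes were called. Against RES, 2-CM gave 0 calls with depc (0 unadjusted, 0 with voom, 0.599% of all genes) and with poly I:C (1 unadjusted, 0 with voom, 0.576%), the 1 being ADORA2A at −1.87 (adjusted p = 0.248), or −0.63 with SPECC1L-ADORA2A summed in. Replicates were apart for 4 genes with depc (48% of all genes) and 7 with poly I:C (62.8%). After the GC correction ADORA1 (0.57), ADA (0.51) and SLC29A2 (0.40) were called higher in 2-CM than in RES with depc, 3 of 9 against 11.2% of all genes, and ADA was not with the replicate block added. The poly I:C response of RES cells minus that of DMSO cells called 0 of 9 with limma (0 unadjusted, 0 with voom) and 0 of all genes.

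The authors' deposited table for poly I:C against depc under 2-CM called 8 of the 9 genes at an adjusted p under 0.05, 3 higher and 5 lower, against 46.4% of its genes (23% higher and 23.5% lower). In that table the log2 fold change was 2.19 for DCK, 1.65 for NT5E, 0.99 for ADK, −1.65 for SLC29A2, −1.70 for ADA, −1.77 for SLC29A1, −1.92 for ADORA1, −5.35 for ADORA2A and −0.31 for ADORA2B. The readthrough gene SPECC1L-ADORA2A was at 1.81 in the authors' deposited table (not called), opposite to ADORA2A, and the pair was not summed in that table. The authors' deposited tables called 0 of the 9 under DMSO (5 at an unadjusted p under 0.05) against 1.25% of genes, and 0 under RES (1 unadjusted) against 0.363%. Their folds under 2-CM are on another scaling than TPM, with 5407 genes higher and 5525 lower in the authors' deposited table.

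Around these genes, 71 genes of 5 pathway lists were read from the same fit. The files named 68, and 51 passed the filter. Poly I:C under 2-CM called 13 higher and 12 lower, under DMSO 1 higher and 3 lower, and under RES 1 higher. That is 49% of the 51 genes under 2-CM, 7.84% under DMSO and 1.96% under RES, beside 49.3%, 4.08% and 0.442% of all genes. By direction, 13 of 51 higher stands beside 37.5% of all genes, and 12 of 51 lower beside 11.8%. The calls under 2-CM split by GC content as those of the 9 genes did: the 13 higher genes held 36.0% to 49.5% GC and the 12 lower genes 53.6% to 69.2%. With the GC correction 6 of the 13 and 9 of the 12 stayed called in the same direction. Counting genes called only after the correction, 6 of the 51 were then called higher and 12 lower. The correction called 30.1% of all genes in that comparison. Among nucleoside carriers, SLC29A4 (a transporter of monoamines as well as adenosine) and the intracellular carrier SLC29A3 were both called lower under 2-CM, at −1.27 and −0.73, and after the GC correction at −0.86 and −0.80. With that correction both were called lower under DMSO as well, SLC29A4 at −0.53 and SLC29A3 at −0.72, where 15.9% of all genes were called. Among kinases, the mitochondrial CMPK2, an interferon-induced enzyme, stood out in each compound. It was at 0.40 to 1.30 TPM in the depc libraries, at 31.7 and 22.1 in DMSO poly I:C, 60.4 and 61.5 in 2-CM poly I:C and 15.3 and 24.4 in RES poly I:C. It rose by 3.70 under DMSO (adjusted p = 0.00142, limma), 4.95 under 2-CM (adjusted p = 0.000169) and 3.55 under RES (adjusted p = 0.00299). CMPK1 (2.41), AK3 (2.35) and AK4 (1.88), kinases of nucleoside monophosphates, rose under 2-CM, and NME3 (−1.21), TK1 (−1.15), NME4 (−0.96) and AK1 (−0.81) fell. Corrected for GC, AK4 (0.75), NME3 (−0.59), TK1 (−0.65) and NME4 (−0.48) stayed called, and CMPK1 (0.57), AK3 (0.82) and AK1 (−0.43) did not. CMPK2 was then at 3.74 under DMSO and 4.35 under 2-CM, called in both.

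Among genes of deamination, dephosphorylation and salvage, 5 of 13 rose and 4 fell under 2-CM, where 37.5% of all genes rose and 11.8% fell. NT5C3A, a pyrimidine nucleotidase, rose by 3.72, the antiviral triphosphohydrolase SAMHD1 by 3.33, the salvage enzyme HPRT1 by 2.31 and MTAP by 1.79. SAMHD1 was at 7.06 and 7.05 TPM in 2-CM depc and at 87.3 and 73.1 in 2-CM poly I:C. APRT, which returns adenine to AMP, fell by 1.65 there, and AHCY, which releases adenosine from S-adenosylhomocysteine, by 1.33. NT5C fell by 0.79 and NT5C3B by 0.46. Corrected for GC, NT5C3A (1.84), SAMHD1 (1.94), HPRT1 (1.17), APRT (−1.07) and AHCY (−1.35) stayed called. MTAP (0.15), NT5C and NT5C3B did not, so 3 of the 5 that rose and 2 of the 4 that fell were kept. NT5C3A and SAMHD1 were then called higher under the other compounds too, at 1.18 and 1.47 under DMSO and 1.03 and 0.96 under RES. The correction called 15.9% of all genes under DMSO and 3.25% under RES. AHCY also fell under DMSO, by 0.97 (adjusted p = 0.0479, limma). Of genes for extracellular breakdown and release, PANX1, an ATP release channel, rose by 1.76 and ENPP1 by 1.36, while the phosphatase ALPL fell by 1.36. Of these, corrected for GC, PANX1 (1.22) and ALPL (−1.01) stayed called and ENPP1 (−0.15) did not. Of the receptor and cyclic AMP list, the inhibitory G protein subunit GNAI3 rose by 1.85 under 2-CM (0.42 and not called after the GC correction), and the adenylyl cyclases ADCY9 (−1.07) and ADCY3 (−0.77) fell under DMSO. PDE4C, a cyclic AMP phosphodiesterase, was at 1.25 and 2.11 TPM in RES depc and at 0 and 0.147 in DMSO depc. It passed the filter on low values through the RES depc libraries alone, so no test is given for it. The medians of the 51 genes were 0.10 under 2-CM, −0.25 under DMSO and −0.10 under RES, beside 0.61, −0.14 and −0.03 for all genes.

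**Figure D5:**
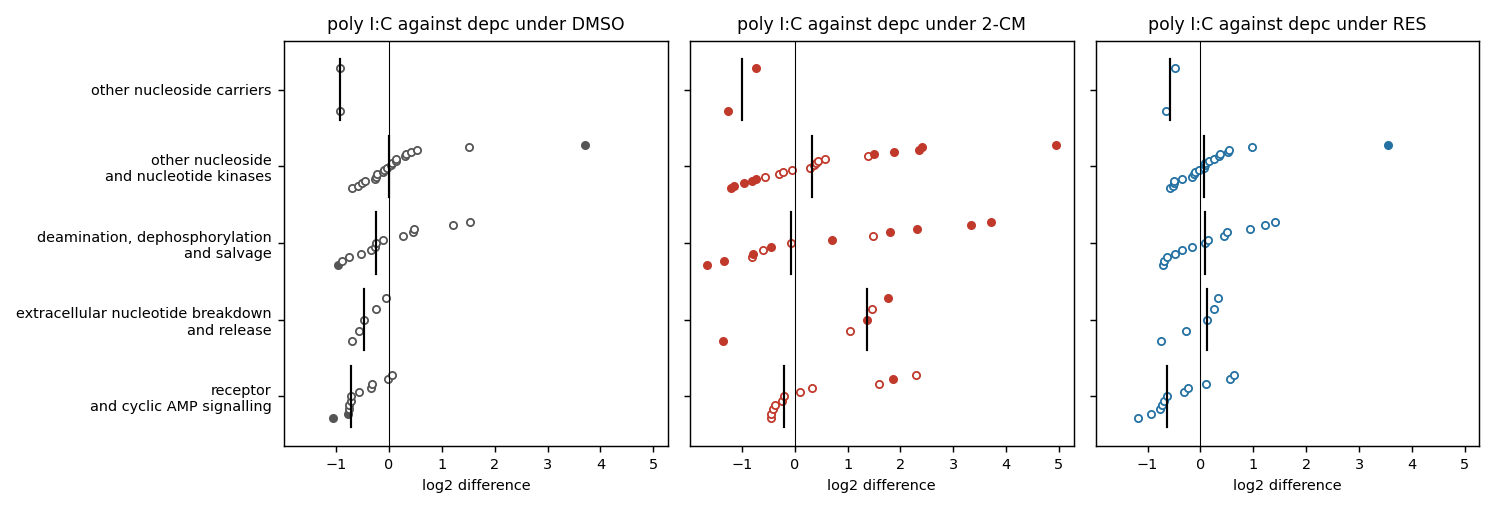
Poly I:C minus depc on the log2(TPM + 1) scale (horizontal axes) for the 51 genes of 5 lists (vertical axis) under each compound. Filled points had an adjusted p under 0.05 (limma), and bars are list medians. Points are filled on both sides of 0 under 2-CM, and CMPK2 is the far right point in each panel.

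Members that rose and fell together did so across all 12 libraries, which share depth and GC trends, and their correlations are given as a description. DCK and NT5E had a Pearson r of 0.95 on log2(TPM + 1), SLC29A1 and ADA 0.90, and ADA and DCK −0.88. ADORA2A was least related to the rest, with r of 0.67 with SLC29A1 at most. It was taken here without SPECC1L-ADORA2A, with which it shares exon bases. Among 9270 other protein-coding genes with a mean of at least 5 TPM (9271 for NT5E and ADORA2A, whose own means were lower), the pattern most like that of DCK was FDX1 (r = 0.998) and that most like ADA was TRAPPC2L (0.988). For SLC29A1 it was FOXRED1 (0.985), for SLC29A2 TGFB1 (0.986), for ADK PRIM2 (0.974) and for ADORA1 FBLIM1 (0.989). For NT5E it was MAP3K8 (0.987), for ADORA2B CSNK1A1 (0.961) and for ADORA2A PPCDC (0.856). After the GC correction TRAPPC2L stayed nearest to ADA (0.974), and the nearest gene changed for the other 8.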

How the data were processed

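RNA of 12 libraries was analysed, in 6 groups of 2 taken from the labels. The authors quantified each library with StringTie 2.0.4 and GENCODE 32, per the file headers, with no strand option (12 of 12 headers), and deposited TPM, FPKM and mean coverage (a signal per base) per transcript. Per the submitters' processing notes, HISAT2 2.1.0, bcl2fastq 2.20, DESeq2 and hg38 were used, with no role given. The authors' deposited comparison tables hold a mean signal (normalised count), log2 fold changes, a test score and p-values. These files hold no counts, so no count test is a main result. Voom on reads estimated from coverage was an alternative.

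TPM was summed per gene. Genes with TPM of 1 or more in 2 libraries were kept, and limma 3.58.1 (R 4.3.3, trend) was fitted to log2(TPM + 1) with 6 group means over the 12 libraries (6 residual degrees of freedom). P-values were adjusted by Benjamini-Hochberg within each of 11 comparisons. Reads were estimated from coverage, length and read length (101 bases). The GC correction used smoothing splines with 5 degrees of freedom. The fit was tested on simulated data with the same dispersion for all genes and no GC trend. These libraries did have GC trends, so that check does not show how the fit behaves on them. All 9 genes are named whatever their values, with up to 4 called genes per pathway list, comparison and direction. The genes and lists were chosen with earlier results of these data known. The markers MUC7, KRT19, KRT5, KRT14, PTPRC and CD3E were not analysed here.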

Additional observations from a re-analysis of the deposited data

How the results depend on the processing

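Of 211 alternative values for gene results that were called, 124 stayed called in the same direction and 87 lost the call. Of 1879 values for results that were not called, 9 gained one, and no called direction reversed. Poly I:C under DMSO called 0 of the 9 genes with FPKM, with median-of-ratios scaling, with voom on estimated reads, with the replicate block and with only the groups compared, and 0 to 2 when 1 library was left out. Poly I:C under 2-CM called 0 without the filter on low genes (1.61% of all genes), 4 with the GC correction, 4 with the replicate block and GC correction, and 0 to 8 when 1 library was left out. With only the groups compared it called 9, ADORA2B among them (adjusted p = 0.0403, limma), and 69% of all genes. RES against DMSO with depc called 1 with the GC correction (10.9% of all genes) and 1 with the replicate block and GC correction (10% of all). For 2-CM against RES with depc these settings called 3 and 2 (11.2% and 10.2%). Under DMSO the settings without a call among the 9 called 0.0349% to 2.01% of all genes, and under 2-CM the GC correction called 30.1% without and 30% with the block. The causes were not tested.

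Same-numbered libraries did not deviate together in every pair of groups, so the numbers were not taken as pairs. The correlation of their deviations was 0.15 to 0.76 in the 10 pairs among the 5 groups other than RES poly I:C, and −0.80 to −0.31 in the 5 pairs with RES poly I:C, whose numbers ran the other way. The block used the numbers as labelled. With the replicate block 0 of the 9 genes were called under DMSO (2.01% of all genes) and 7 under 2-CM (51.8%). Each group held 2 replicates, and estimated reads were few for NT5E and, in several libraries, for ADORA2A. Which differences could be detected was not tested, and a missing call does not show that a gene was unchanged.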
